A study of Mus musculus with 2 samples.

Results

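The genes described here encode the enzymes of glycolysis, of the pentose phosphate pathway and of the tricarboxylic acid (TCA) cycle, in mouse acute myeloid leukaemia (AML) cells. They are 49 listed genes, taken by symbol from a table of 46095 genes, and all 49 were found in it. Glycolysis had 20 of them, the pyruvate dehydrogenase step 6, the pentose phosphate pathway 7, and the TCA cycle with its linked enzymes 16. RNA was sequenced from 2 libraries of leukaemia-initiating cells sorted from bone marrow by surface Mac1 and c-Kit, from C57BL/6 mice aged 8 weeks. The genotype field calls 1 library wild type and the other P2x7-KO, for P2x7, an ATP-gated cation channel, but the sample titles read P2XT-Scr for the former and P2XT-KD for the latter. The sources used here do not say how the leukaemia was made or whether animals were pooled. With 1 library per group there is no replicate check and no test between genotypes, and every interval below covers counting error only.

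Glycolysis splits glucose to pyruvate in the cytosol, gives ATP, and ends in lactate where lactate dehydrogenase acts. The pentose phosphate pathway branches off at glucose phosphate and makes NADPH, which myeloid cells also use for their oxidative burst, and ribose phosphate for nucleotides. Pyruvate dehydrogenase carries pyruvate into the mitochondrion's TCA cycle as acetyl-CoA, and its kinases switch it off by phosphorylation.

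The targeted gene P2rx7 had 229 counts under the wild type label and 543 under the P2x7-KO label, 2.27-fold higher (95% interval 1.94 to 2.66) in the latter. Corrected for transcript length and GC content, its log2 ratio was 0.885 (0.66 to 1.11), under 2-fold. P2rx7 RNA was thus not lower under the P2x7-KO label. Gene counts do not show which exons or protein remain, so the label could not be checked from them. Every direction below is therefore between the libraries as labelled, and "in P2x7-KO" stands for "in the library labelled P2x7-KO". The libraries held 12456212 and 12435916 counts. Kit, Itgam (which encodes the Mac1 alpha chain) and Ptprc were detected in both, with summed levels of 424 and 979 CPM in wild type and P2x7-KO (counts per 1000000 counts of a library, with the library total scaled by edgeR's TMM). Of 8 monocyte markers 7 were on the higher side in P2x7-KO, with summed levels of 1157 and 3020 CPM, and of 7 neutrophil markers 2 were, with 3411 and 2871 CPM. The median log2 ratio of the neutrophil markers, -0.43, turned to 0.10 once corrected for transcript length and GC content (4 intervals above equality and 3 below). Of 5 mast cell and basophil markers 0 were, with 379 and 40.1 CPM and Fcer1a at 0 in both. Summed levels were 75.4 and 41.2 CPM for B lymphoid markers, 34.9 and 11.4 CPM for T and NK markers and 0.904 and 8.72 CPM for erythroid markers, with Ms4a1, Cd3e, Cd8a and Alas2 among the markers at 0 in wild type. Of 5 markers in each of these lists, 3 B lymphoid, 2 T and NK and 3 erythroid ones were on the higher side in P2x7-KO. Among the B lymphoid markers Igkc was higher there, with 20 and 122 counts, and Ighm lower, with 892 and 395. The part of these cell type differences in the results below was not tested. Fewer cells of a type and less RNA per cell cannot be told apart in bulk RNA.

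Most of the 49 genes stood close together in the libraries. The call used here asked for a ratio of scaled counts of 2 or more in either direction and a 95% counting interval that excluded equality. All 49 had at least 20 counts over both libraries, the minimum for a call. By this rule 3 were higher in P2x7-KO (6.12%, against 10.8% of all 13363 genes counted), namely Pdk1, Aldoc and Pfkfb4. Lower was 1 (2.04%, against 8.95% of all genes), Pgls, and 45 were neither. Both shares lay under the background of all genes. Of the 49, 40 were under 1.5-fold apart. The interval lay wholly above equality for 19 members (38.8%, against 35.6% of all genes) and wholly below it for 20 (40.8%, against 34.7%), and included it for 10 (20.4%, against 29.8%). Intervals narrow as counts rise, and 33 of the members had at least 1000 counts in wild type. These shares were not matched to all genes by count.

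**Figure D1:**
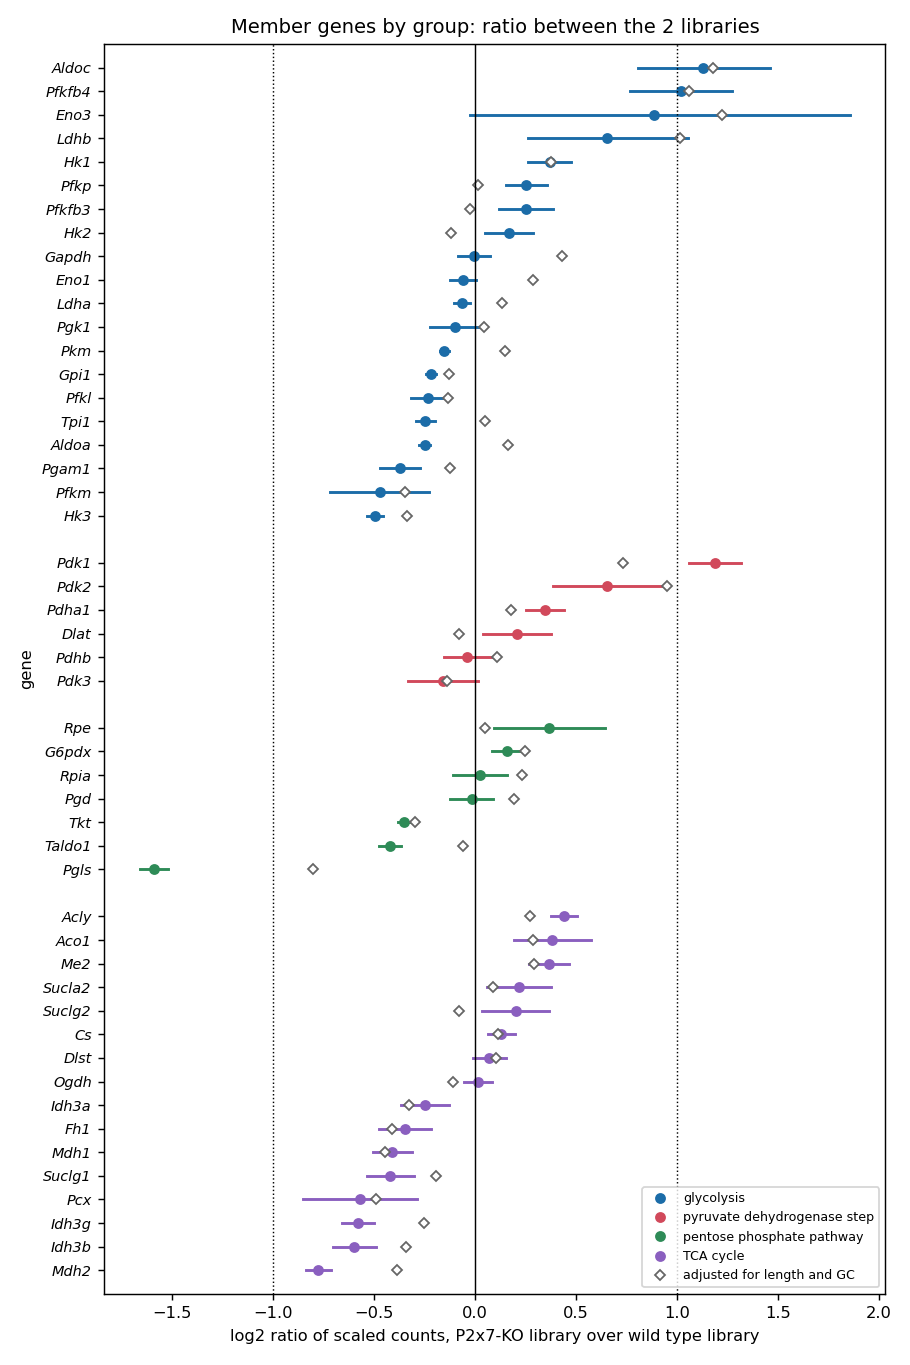
Log2 ratio (horizontal axis) of scaled counts in the P2x7-KO library over the wild type library for each of the 49 genes, by group, with 95% counting intervals (filled points and bars); open diamonds show the same ratio corrected for transcript length and GC content, and dotted lines mark 2-fold. Pdk1, Aldoc and Pfkfb4 lie to the right of the right dotted line and Pgls, at -1.59, to the left of the left one.

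The groups differed little in their middle. The median log2 ratio (0.5 added to each scaled count) was -0.06 for glycolysis, -0.02 for the pentose phosphate pathway, -0.12 for the TCA group and 0.28 for the pyruvate dehydrogenase step, against 0.005 over all genes counted. Their ranges overlapped: glycolysis ran from -0.49 to 1.13, the pentose phosphate pathway from -1.59 to 0.37, the TCA group from -0.78 to 0.44 and the pyruvate dehydrogenase step from -0.16 to 1.19. Summed counts, which the abundant genes dominate, gave a P2x7-KO to wild type ratio of 0.878 (0.871 to 0.885) for glycolysis and 0.905 (0.891 to 0.920) for the TCA group. The sum ratio of the pentose phosphate genes was 0.742 (0.730 to 0.753), and 0.826 (0.813 to 0.839) without Pgls. For the pyruvate dehydrogenase step it was 1.29 (1.25 to 1.34). Over all genes counted the sum ratio was 0.954 (0.953 to 0.954), so equality is not the baseline for these sums. Differences between groups were not tested, since genes are not replicates. The ratios moved with transcript length and GC content over all genes, so each was also taken with a correction for both, called the length-GC correction below, and with a correction for length alone. With the former 4 members were called higher (Aldoc, Eno3, Ldhb and Pfkfb4, against 7.65% of 12666 genes) and 0 lower (against 5.40%). With length alone 3 were higher (Aldoc, Eno3 and Ldhb, against 8.27%) and 1 lower (Pgls, against 5.86%). Upper quartile scaling gave 2 higher (Aldoc and Pdk1, against 10.2%) and 1 lower (Pgls, against 9.53%). The calls were those first given with total count scaling (against 12.3% higher and 7.72% lower of all genes), DESeq2 scaling (11.6% and 8.25%), no count minimum (8.27% and 6.81%) and a minimum of 100 counts (9.21% and 6.61%). At a 1.5-fold call 5 were higher (against 21.1%) and 3 lower (against 18.9%). The medians of glycolysis and the pentose phosphate pathway lay on the other side of 0 with total count scaling and with either correction. That of the pentose phosphate pathway also did so with DESeq2 scaling (0.021), and that of the TCA group did so with none of these.

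The abundant enzymes of glycolysis were slightly lower in P2x7-KO by the uncorrected ratio of scaled counts. Levels can be compared between genes only per length, here as CPM per kb of the longest annotated coding transcript. On that scale the aldolase gene Aldoa led with 1153 in wild type and 971 in P2x7-KO, followed by the pyruvate kinase gene Pkm with 903 and 814 and the glucose phosphate isomerase gene Gpi1 with 884 and 760. Gpi1, Pkm and Aldoa gave 24.31%, 20.96% and 17.05% of the glycolytic counts in wild type, and 23.82%, 21.5% and 16.34% in P2x7-KO. Gpi1 had 30994 and 27906 counts and was 1.16-fold lower (1.14 to 1.18). Aldoa had 21734 and 19147, 1.19-fold lower (1.17 to 1.21), and Pkm 26712 and 25192, 1.11-fold lower (1.09 to 1.13). Pkm shares 767 exonic bases with Gm49759 on the same strand, and Gpi1 741 with Gm26762 on the opposite strand. The differences of Aldoa and Pkm turned to the other side with the length-GC correction (log2 0.16 and 0.15). The triose phosphate isomerase gene Tpi1, with 8085 and 7137 counts, was 1.19-fold lower (1.15 to 1.22), but likewise on the other side with it (0.05). The phosphoglycerate mutase gene Pgam1, with 1851 and 1499, was 1.29-fold lower (1.21 to 1.39).

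Some core glycolytic genes were near equality by the uncorrected ratio of scaled counts. The glyceraldehyde phosphate dehydrogenase gene Gapdh, often used as a reference gene, had 2488 and 2600 counts, 204.5 and 204.2 CPM, 1.002-fold apart with an interval of 0.948 to 1.06, but its log2 ratio was 0.43 (0.35 to 0.51) with the length-GC correction. The phosphoglycerate kinase gene Pgk1 had 1102 and 1078 counts and the enolase gene Eno1 3879 and 3901 (318.9 and 306.3 CPM), and both intervals included equality, though that of Eno1 did not with the correction (log2 0.29, 0.22 to 0.35). Per length, Gapdh stood at 144 CPM per kb in both libraries, Eno1 at 157 and 151 and Pgk1 at 49.6 and 46.4, all under Aldoa in the same pathway. The sources used here do not say how reads with several matches were treated, and these genes have near-identical copies, so their levels are uncertain. Eno1b, a near-identical copy of Eno1, had 1436 and 2172 counts, and Eno1 with it had a log2 ratio of 0.13 (0.07 to 0.18) in place of -0.06. For Gapdh, Ldha, Pgam1 and Pgk1 the copies named after them in the table added at most 188 counts in either library and left the log2 ratio between -0.38 and -0.01.

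**Figure D2:**
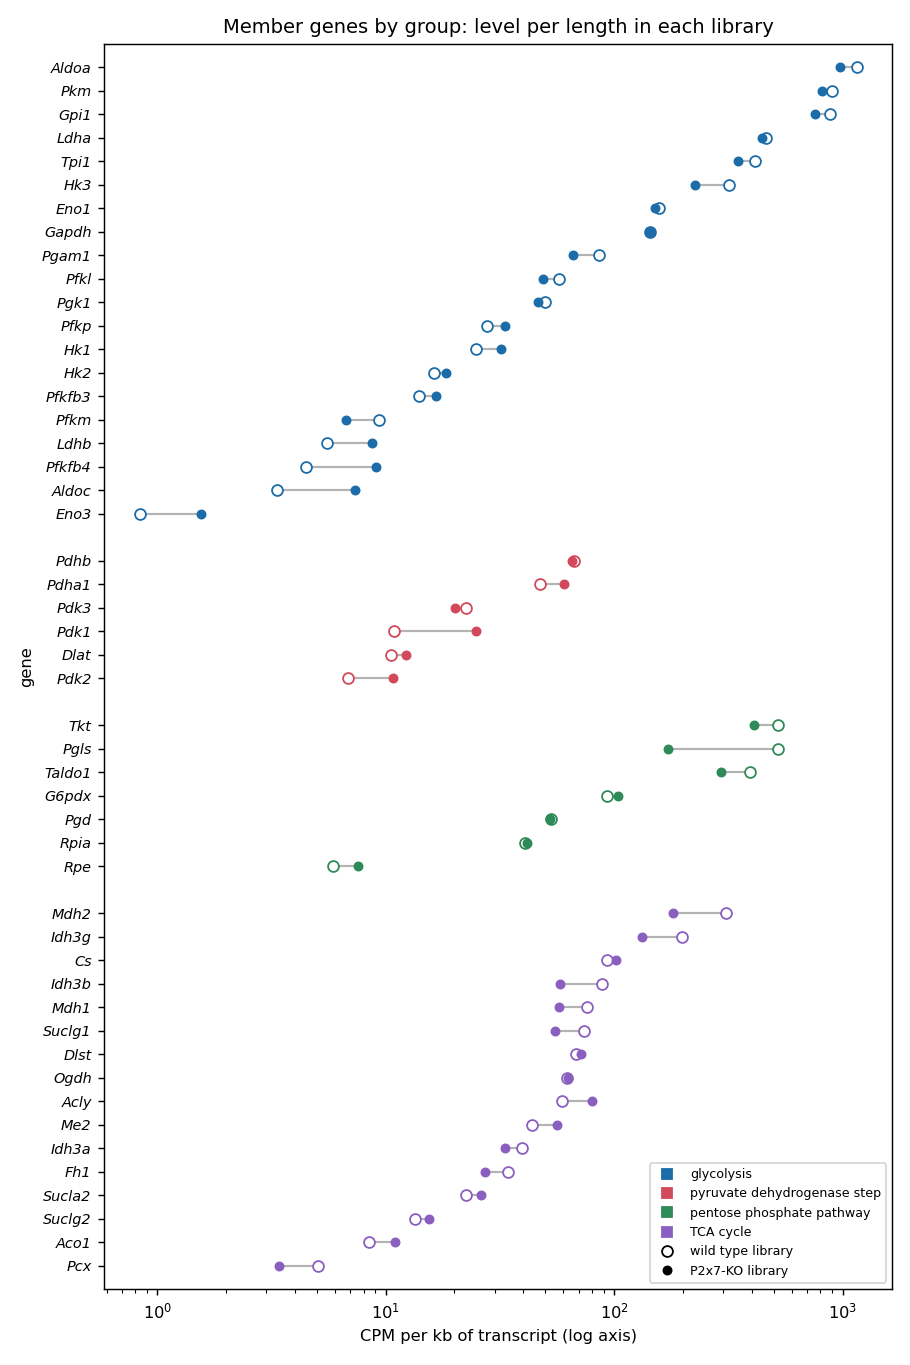
Level per length of each of the 49 genes in the wild type library (open circles) and the P2x7-KO library (filled circles), in CPM per kb of transcript on a log axis, by group. Levels ran from 0.841 CPM per kb (Eno3) to 1153 (Aldoa) in wild type, and the lines joining the libraries are short beside that range.

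The hexokinases, which trap glucose in the cell by phosphorylation, differed in direction. Hk3, the most abundant per length, had 12489 counts in wild type and 9284 in P2x7-KO (1027 and 729.1 CPM), 1.41-fold lower (1.37 to 1.45). Hk1, with 1289 and 1744 counts (106 and 137 CPM), was 1.29-fold higher (1.202 to 1.39). Hk2, with 1093 and 1287 (89.85 and 101.1 CPM), was 1.13-fold higher (1.04 to 1.22), a direction that turned with the length-GC correction (log2 -0.12). Per length, Hk3 made up 88.6% of hexokinase in wild type and 81.8% in P2x7-KO, Hk1 6.88% and 11.6%, and Hk2 4.53% and 6.62%. Within-library ratios of gene pairs need no scaling between libraries, and 18 pairs were compared in this way, each with the exact conditional interval of the ratio of ratios. The Hk3 to Hk1 count ratio was 9.69 in wild type and 5.32 in P2x7-KO, a change of 0.549 (0.508 to 0.594), with a log2 of -0.86 that became -0.71 with the correction. The Hk3 to Hk2 ratio changed by 0.631 (0.579 to 0.688), or 1.58-fold, and its log2 of -0.66 became -0.22 with it. The Hk2 to Hk1 ratio, 0.848 and 0.738, changed by 0.870 (0.780 to 0.971), and its log2 of -0.2 became -0.495 with the correction.

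Phosphofructokinase, the committing step of glycolysis, is built from liver (Pfkl), muscle (Pfkm) and platelet (Pfkp) type subunits. Pfkl had 2597 and 2313 counts (213.5 and 181.6 CPM), 1.18-fold lower in P2x7-KO (1.11 to 1.24), and Pfkm 326 and 246 (26.8 and 19.3 CPM), 1.39-fold lower (1.17 to 1.64). Pfkp, with 1405 and 1755 counts (115.5 and 137.8 CPM), was 1.19-fold higher (1.11 to 1.28), but its log2 of 0.26 became 0.02 (-0.09 to 0.12) with the length-GC correction. Pfkl remained the largest of these per length, at 60.6% in wild type and 54.9% in P2x7-KO, with Pfkp at 29.5% and 37.5% and Pfkm at 9.86% and 7.57%. The Pfkp to Pfkl count ratio was 1.40-fold higher (1.28 to 1.54) in P2x7-KO, with a log2 of 0.49 that became 0.15 with the correction. Against Pfkm the Pfkp ratio was 1.66-fold higher (1.38 to 1.99), with a log2 of 0.73 that became 0.36 with the correction. The Pfkm to Pfkl ratio changed by 0.847 (0.708 to 1.01), and its log2 of -0.24 became -0.21. Pfkp shares 748 exonic bases with Pitrm1 on the opposite strand and Pfkm 341 with Gm26513 on the same strand, and the sources used here do not give the strand setting of the counting.

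Pfkfb3 and Pfkfb4 encode bifunctional enzymes that make and remove the fructose bisphosphate that activates phosphofructokinase. Pfkfb4, on chromosome 9 from 108991778 to 109032228 (mm10, GENCODE M21, plus strand), had 190 counts in wild type and 403 in P2x7-KO. At 15.6 CPM (13.5 to 18.0) and 31.7 CPM (28.6 to 34.9) it was 2.03-fold higher (1.70 to 2.42) in P2x7-KO. It lay close to the 2-fold line: its log2 ratio of 1.02 was 1.06 with the length-GC correction, but 0.92 with the correction for length alone and 0.99 with upper quartile scaling. Pfkfb3, with 819 and 1020 counts (67.3 and 80.1 CPM), was 1.19-fold higher (1.08 to 1.31), but on the other side with the length-GC correction (log2 -0.02). The Pfkfb4 to Pfkfb3 count ratio was 0.232 in wild type and 0.395 in P2x7-KO, 1.70-fold higher (1.40 to 2.08).

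The minor isozymes Aldoc, Ldhb and Eno3 all lay on the higher side in P2x7-KO, beside major isozymes that differed less. Aldoc, the brain-type aldolase gene on chromosome 11 from 78322968 to 78327781 (plus strand), had 113 counts in wild type and 259 in P2x7-KO. It stood at 9.29 CPM (7.66 to 11.2) and 20.3 CPM (17.9 to 23.0), 2.19-fold higher (1.75 to 2.76), and its log2 ratio of 1.13 was 1.18 with the length-GC correction. Aldoa stood at 1787 and 1504 CPM. The heart-type lactate dehydrogenase gene Ldhb had 88 and 145 counts (7.23 and 11.4 CPM), 1.57-fold higher (1.2 to 2.08), while Ldha had 10201 and 10221 (838.6 and 802.7 CPM), 1.05-fold lower (1.02 to 1.07), a direction that turned with total count scaling and with either correction. Ldhb was under the 2-fold line and at it with the length-GC correction (log2 1.02, 0.63 to 1.42). The muscle enolase gene Eno3 had 16 and 31 counts (1.32 and 2.43 CPM), and its ratio of 1.85 had an interval from 0.982 to 3.62. As shares of family counts, Aldoc made up 0.517% (0.427 to 0.622, Clopper-Pearson) in wild type and 1.34% (1.18 to 1.51) in P2x7-KO, Ldhb 0.855% (0.687 to 1.05) and 1.40% (1.18 to 1.64), and Eno3 0.411% (0.235 to 0.666) and 0.788% (0.536 to 1.12). The ratio of minor to major isozyme was 2.60-fold higher (2.08 to 3.28) for Aldoc over Aldoa, 1.65-fold (1.25 to 2.17) for Ldhb over Ldha and 1.93-fold (1.02 to 3.78) for Eno3 over Eno1. Aldoa and Ldha nonetheless held 98.7% and 98.6% of their family's counts in P2x7-KO. Eno1 was taken here without Eno1b, its near-identical copy with 1436 and 2172 counts. The Eno3 share and ratio with that copy added were not computed, and the lower bound of 1.02 lay close to equality.

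The pyruvate dehydrogenase step held the largest uncorrected ratio of the 49 on the higher side, while with the length-GC correction Eno3, Aldoc, Pfkfb4, Ldhb and Pdk2 all stood above Pdk1. Pdk1, a kinase that inactivates pyruvate dehydrogenase, lies on chromosome 2 from 71873224 to 71903858 (plus strand) and had 686 counts in wild type and 1638 in P2x7-KO. At 56.4 CPM (52.3 to 60.8) and 128.6 CPM (122.5 to 135.0) it was 2.28-fold higher (2.085 to 2.497). The transcript has 5185 bases, and the log2 ratio of 1.19 became 0.74 (0.61 to 0.87) with the length-GC correction and 0.81 with length alone, both under 2-fold. Pdk2, with 187 and 308 counts (15.4 and 24.2 CPM), was 1.57-fold higher (1.31 to 1.90), with a log2 ratio of 0.65 that became 0.95 (0.68 to 1.22) with the length-GC correction. Pdk3, with 579 and 543 (47.6 and 42.6 CPM), had a ratio whose interval included equality. Per length, Pdk3 made up 56.0% of these kinases in wild type and 36.2% in P2x7-KO, Pdk1 27.0% and 44.5%, and Pdk2 17.0% and 19.3%. By these uncorrected shares their order was Pdk3, Pdk1, Pdk2 in wild type and Pdk1, Pdk3, Pdk2 in P2x7-KO. The Pdk3 to Pdk1 count ratio, 0.844 and 0.332, was 2.55-fold lower (2.19 to 2.96). Its log2 of -1.35 became -0.87 with the correction and -0.82 with length alone. Per length the Pdk3 to Pdk1 ratio was 2.07 in wild type, so either corrected change, being under 2-fold, leaves Pdk3 above Pdk1. The Pdk3 to Pdk2 ratio was 1.76-fold lower (1.41 to 2.19). The Pdk2 to Pdk1 ratio was 1.45-fold lower (1.18 to 1.78), a direction that turned with the correction (log2 0.21).

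The enzyme that these kinases act on differed less. Pdha1, the phosphorylated alpha subunit of its E1 component, had 1637 and 2181 counts (134.6 and 171.3 CPM), 1.27-fold higher (1.19 to 1.36) in P2x7-KO. Pdha1 shares 603 exonic bases with Map3k15 on the opposite strand, which had 184 and 308 counts. The beta subunit gene Pdhb had 1232 and 1257 counts (101.3 and 98.7 CPM), 1.03-fold lower with an interval that included equality. The Pdhb to Pdha1 ratio was 1.31-fold lower (1.18 to 1.45), but its log2 of -0.385 became -0.07 with the length-GC correction. That of Pdha1 itself, 0.35, became 0.18 (0.09 to 0.27) with it. Dlat, the E2 acetyltransferase gene, had 520 and 629 counts, 1.16-fold higher (1.03 to 1.30), with a log2 of 0.21 that became -0.08 with the length-GC correction.

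The upstream sequences of the 3 members called higher are shown here with that of Pcx, to let their letters be read beside a motif searched for. Pcx held the most matches after Ldha, whose window fell inside its annotated gene. Each runs 5′ to 3′ from 250 bases before the RefSeq start (GRCm38.p6) and ends before the earlier of the RefSeq and GENCODE starts. Capitals mark ACGTG on either strand, a form of the core motif of hypoxia-inducible factors. Other forms of that core were neither searched for nor marked.
Pdk1, chr2:71872974-71873223, plus strand: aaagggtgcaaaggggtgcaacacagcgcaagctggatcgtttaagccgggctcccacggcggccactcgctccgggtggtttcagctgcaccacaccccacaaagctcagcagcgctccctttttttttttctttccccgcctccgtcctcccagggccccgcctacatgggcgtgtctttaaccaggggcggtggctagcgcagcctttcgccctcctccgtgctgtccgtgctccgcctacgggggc
Pfkfb4, chr9:108991652-108991777, plus strand: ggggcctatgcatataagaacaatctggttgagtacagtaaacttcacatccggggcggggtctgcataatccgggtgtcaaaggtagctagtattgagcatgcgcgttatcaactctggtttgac
Aldoc, chr11:78322823-78322967, plus strand: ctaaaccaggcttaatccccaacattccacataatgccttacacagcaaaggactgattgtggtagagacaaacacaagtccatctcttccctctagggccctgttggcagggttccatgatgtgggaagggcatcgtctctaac
Pcx, chr19:4510222-4510471, plus strand: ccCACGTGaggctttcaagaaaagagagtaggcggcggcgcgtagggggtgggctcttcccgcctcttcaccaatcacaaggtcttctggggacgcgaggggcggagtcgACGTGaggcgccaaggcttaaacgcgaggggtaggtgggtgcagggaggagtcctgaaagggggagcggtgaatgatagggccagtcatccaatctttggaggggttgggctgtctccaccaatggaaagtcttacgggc
ACGTG was searched as ACGTG or CACGT in the 250 bases before the RefSeq start nearest the GENCODE gene start, so that CACGTG holds both. It was in 15 of the 47 members with a sequence (31.9%) and in 17.3% of 20595 genes searched in the same way. It was in 0 of the 4 members called in either direction, and Ldha held 5 matches, the most of any member. By group it was in 3 of 6 for the pyruvate dehydrogenase step, 5 of 14 for the TCA group, 7 of 20 for glycolysis and 0 of 7 for the pentose phosphate pathway. The E-box CACGTG was in 8.51% of members and 6.41% of all genes. A match describes the letters only, and so does its absence from this window, where other forms of the core were not searched for.

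The oxidative branch of the pentose phosphate pathway held the gene furthest apart of the 49 by uncorrected ratio, and with the length-GC correction Pgls came after Eno3, Aldoc, Pfkfb4, Ldhb and Pdk2. Pgls encodes 6-phosphogluconolactonase, the enzyme between glucose phosphate dehydrogenase and phosphogluconate dehydrogenase, and lies on chromosome 8 from 71592176 to 71601092 (mm10, plus strand). It had 6709 counts in wild type and 2332 in P2x7-KO. At 551.5 CPM (538.4 to 564.9) and 183.1 CPM (175.8 to 190.7) it was 3.01-fold lower (2.87 to 3.16). Its transcript is the shortest of the 49, at 1062 bases, and has 65.9% GC. The log2 ratio of -1.59 became -1.15 with the correction for length alone and -0.80 (-0.87 to -0.73) with the length-GC correction, which is under 2-fold. Pgls shares 776 exonic bases with Fam129c on the same strand, which was also lower, with 420 and 117 counts (3.76-fold, 3.06 to 4.65). Counts per gene do not show how reads in the shared bases were assigned.

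The enzymes on either side of Pgls were near equality. G6pdx, the NADPH-forming entry enzyme gene, had 3004 and 3508 counts, 1.12-fold higher (1.06 to 1.17) in P2x7-KO, and shares 418 exonic bases with Ikbkg on the opposite strand. Pgd, the second NADPH-forming enzyme gene, had 1433 and 1484, a ratio of 1.01 on the lower side with an interval that included equality. With the length-GC correction the log2 ratios of G6pdx and Pgd were 0.25 and 0.19. In the non-oxidative branch, Tkt (transketolase) had 20527 and 16847 counts (1687 and 1323 CPM), 1.28-fold lower (1.25 to 1.30), and Taldo1 (transaldolase) 6513 and 5094 (535.4 and 400 CPM), 1.34-fold lower (1.29 to 1.39). The Tkt log2 ratio of -0.35 was -0.30 with the length-GC correction, while that of Taldo1, -0.42, was -0.06. The isomerase gene Rpia had 909 and 968 counts, with an interval that included equality but did not with the correction (log2 0.23, 0.10 to 0.365). The epimerase gene Rpe had 193 and 261 counts (15.9 and 20.5 CPM), 1.29-fold higher (1.07 to 1.56). Its log2 of 0.37 became 0.05 with the correction, with an interval that included equality (-0.23 to 0.32). Rpe shares 558 exonic bases with Kansl1l on the opposite strand. Tkt alone held 52.25% (51.8 to 52.7) of the group's counts in wild type and 55.25% (54.7 to 55.8) in P2x7-KO.

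Enzymes of the mitochondrial TCA cycle had more intervals below equality than above it in P2x7-KO, and the enzymes linked to the cycle went both ways. This division by role was made after the values were seen. Of 11 mitochondrial cycle genes 0 were at least 2-fold apart, with 6 intervals below equality (54.5%, against 34.7% of all genes), 3 above (27.3%, against 35.6%) and 2 that included it, and a median log2 ratio of -0.25. With the length-GC correction 7 were below (63.6%, against 33.0%), 2 above (18.2%, against 30.5%) and 2 included it, with a median of -0.19, against -0.015 over all genes. Intervals narrow as counts rise, and these shares were not matched to all genes by count. Mdh2, the mitochondrial malate dehydrogenase gene, was the lowest, with 5473 and 3348 counts (449.9 and 262.9 CPM), 1.71-fold lower (1.64 to 1.79). Its log2 ratio of -0.78 was -0.39 (-0.45 to -0.33) with the correction. The cytosolic gene Mdh1 had 1959 and 1545 counts (161 and 121.3 CPM), 1.33-fold lower (1.24 to 1.42). The Mdh2 to Mdh1 count ratio, 2.79 and 2.17, was 1.29-fold lower (1.19 to 1.40) in P2x7-KO, but its log2 of -0.37 turned to 0.06 with it.

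The subunit genes of NAD-dependent isocitrate dehydrogenase lay on the same side. Idh3a, the catalytic subunit gene, had 1240 and 1094 counts (101.9 and 85.9 CPM), 1.19-fold lower (1.09 to 1.29). Idh3b had 1732 and 1198 (142.4 and 94.1 CPM), 1.51-fold lower (1.41 to 1.63), and Idh3g 3205 and 2246 (263.5 and 176.4 CPM), 1.49-fold lower (1.42 to 1.58). Their log2 ratios with the length-GC correction were -0.33, -0.34 and -0.25. The Idh3b to Idh3a ratio was 1.28-fold lower (1.14 to 1.43) and Idh3g to Idh3a 1.26-fold lower (1.14 to 1.39) from counts, and the log2 values of -0.35 and -0.33 became -0.01 and 0.08 with the correction. Per length, Idh3g made up 60.8% and 59.2% of the family, Idh3b 27.06% and 25.99% and Idh3a 12.1% and 14.9% in wild type and P2x7-KO. Idh3b shares 5 exonic bases with Nop56 on the opposite strand, which was 2.35-fold lower.

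Succinyl-CoA ligase joins an alpha subunit, from Suclg1, to a beta subunit that uses ADP (Sucla2) or GDP (Suclg2). Suclg1 had 1359 and 1065 counts, 1.34-fold lower (1.23 to 1.45) in P2x7-KO. Sucla2 had 607 and 739 (49.9 and 58.0 CPM), 1.16-fold higher (1.04 to 1.30), and Suclg2 549 and 661 (45.1 and 51.9 CPM), 1.15-fold higher (1.03 to 1.29), the latter on the other side with the length-GC correction (log2 -0.08). With it Sucla2 had an interval that included equality (log2 0.09, -0.07 to 0.25), and the Suclg1 log2 of -0.42 became -0.19 (-0.31 to -0.08). The Suclg2 to Sucla2 ratio was 0.904 and 0.895 and changed by 0.989, with an interval from 0.844 to 1.16. The fumarase gene Fh1 had 1105 and 910 counts, 1.27-fold lower (1.16 to 1.39), with a log2 of -0.35 that became -0.41 with the correction. Citrate synthase (Cs), with 3307 and 3789 counts, was 1.10-fold higher (1.04 to 1.15). The oxoglutarate dehydrogenase complex genes Ogdh (3112 and 3294) and Dlst (2286 and 2515) had intervals that included equality. Neither did with the correction, at log2 -0.11 (-0.18 to -0.035) for Ogdh and 0.105 (0.02 to 0.19) for Dlst.

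Among the linked enzymes, Acly, which encodes the enzyme that makes cytosolic acetyl-CoA from citrate for lipid synthesis, had 3182 and 4523 counts (261.6 and 355.2 CPM), 1.36-fold higher (1.30 to 1.42). Me2, the mitochondrial malic enzyme gene, had 1403 and 1895, 1.29-fold higher (1.204 to 1.383). Aco1, the cytosolic aconitase gene whose protein also serves as an iron-regulatory protein, had 394 and 538, 1.30-fold higher (1.14 to 1.49). Pcx, whose enzyme refills oxaloacetate from pyruvate, had 255 and 180, 1.48-fold lower (1.22 to 1.81). Each of these 4 kept its side with the length-GC correction, at log2 ratios of 0.27, 0.29, 0.29 and -0.49.

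**Figure D3:**
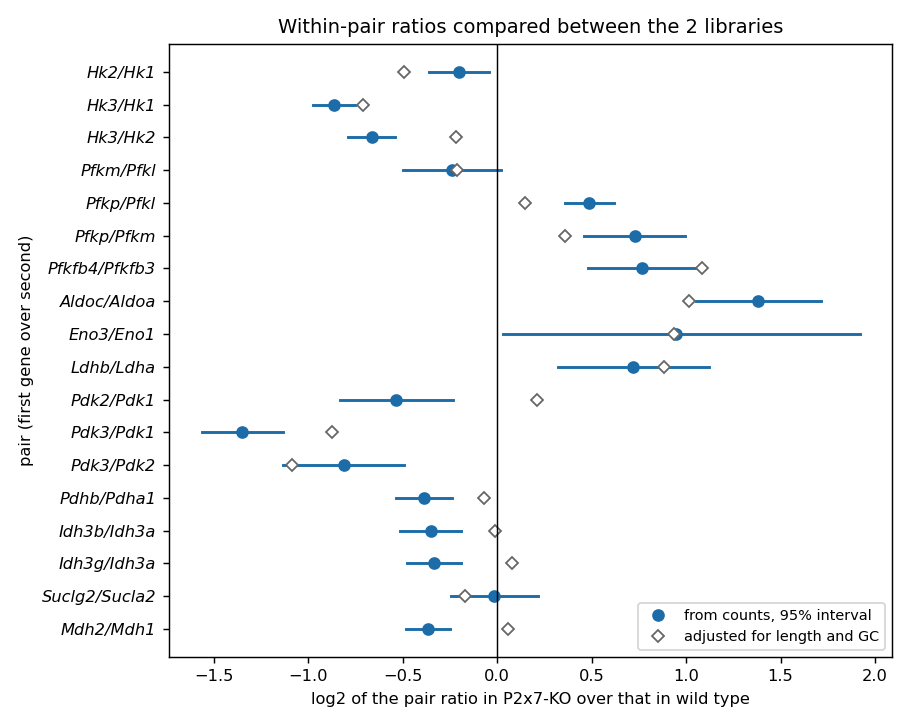
Change of the within-pair count ratio between the libraries (log2 of the ratio in P2x7-KO over that in wild type) for the 18 gene pairs, with exact 95% conditional intervals; open diamonds are corrected for transcript length and GC content. Aldoc over Aldoa lies furthest to the right, at 1.38, and Pdk3 over Pdk1 furthest to the left, at -1.35.

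Of the 18 pairs, 16 had an interval that excluded an equal ratio, 9 differed by at least 1.5-fold and 2 by at least 2-fold. The latter were Aldoc over Aldoa and Pdk3 over Pdk1. Pfkm over Pfkl and Suclg2 over Sucla2 included equality. The interval of Eno3 over Eno1 excluded it narrowly, from 1.02, with Eno1b left out. With the length-GC correction 3 pairs were at least 2-fold apart, namely Aldoc over Aldoa (log2 1.01), Pfkfb4 over Pfkfb3 (1.085) and Pdk3 over Pdk2 (-1.09), while Pdk3 over Pdk1 came to -0.87. The correction turned the direction of 3 pairs, Pdk2 over Pdk1, Idh3g over Idh3a and Mdh2 over Mdh1.

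Transcript length moved with the ratios, among members as among all genes. Of the 24 shorter members (1062 to 2580 bases) 19 lay below equality and 5 above, with a median log2 ratio of -0.15. Of the 25 longer (2636 to 5513 bases) 7 lay below and 18 above, with a median of 0.20. Pearson's r between log2 length and log2 ratio was 0.43 over the 49 members and 0.38 over 12666 genes, and with GC content it was -0.36 and -0.31. All these genes share the same 2 libraries, so r is a description. Aldoc and Pfkfb4 stood at least 2-fold higher with and without the length-GC correction, while Pdk1 and Pgls came under 2-fold with it.

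**Figure D4:**
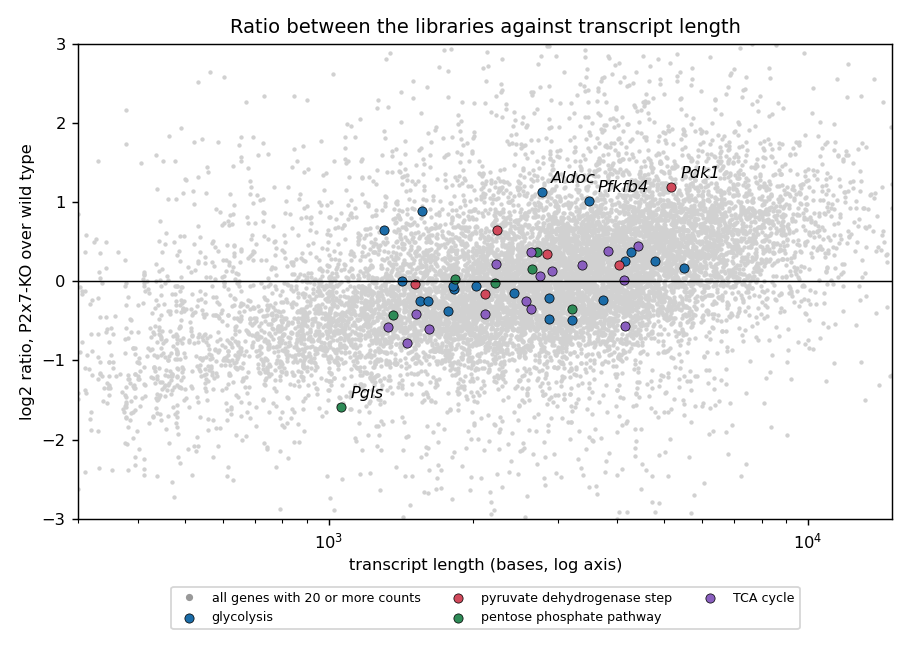
Log2 ratio (P2x7-KO over wild type) against transcript length in bases on a log axis, for the 49 genes by group (coloured points) and for the 12357 genes with at least 20 counts inside the axes, members included (grey); 309 genes fall outside. Grey and coloured points drift upward with length, from Pgls at 1062 bases to Pdk1 at 5185.

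Other genes of these pathways came from a list of 64, chosen by their known roles. Of those described here and next, the genes not called (Slc2a1, Slc16a3, the succinate dehydrogenase genes, Glud1, Hif1a and Arnt) and those named as being at 0 were picked after their values were seen. Of 50 with at least 20 counts, 5 were at least 2-fold higher (10%, against 10.8% of all genes) and 1 lower (2%, against 8.95%), with a median log2 ratio of 0.16. The glucose transporter gene Slc2a3 had 98 and 325 counts, 3.17-fold higher (2.52 to 4.01) in P2x7-KO, while Slc2a1 had 727 and 750, with an interval that included equality. The monocarboxylate transporter gene Slc16a7 was 2.25-fold higher (1.54 to 3.34), at 40 and 94 counts, and its log2 of 1.17 became 0.24 with the length-GC correction. Slc16a3, the lactate exporter gene, had 985 and 1876 counts, 1.82-fold higher (1.68 to 1.97). Pfkfb2, of the same family as Pfkfb4, had 135 and 333 counts, 2.36-fold higher (1.92 to 2.90), and Pdpr, a regulator of the pyruvate dehydrogenase phosphatase, 429 and 1009, 2.25-fold higher (2.01 to 2.52). Pfkfb2 and Pdpr came under 2-fold with the correction, at log2 0.84 and 0.81, and Slc2a3 did not, at 1.46. The other gene called higher was Txnip, whose protein restrains glucose uptake, at 2315 and 5185 counts, 2.14-fold higher (2.04 to 2.25). Its log2 of 1.10 was 1.025 (0.95 to 1.10) with the correction, so it too stayed at least 2-fold higher. Slc25a1, the mitochondrial citrate carrier gene, was the lower one with 23 and 8 counts (3.01-fold, 1.30 to 7.78). With the correction the Slc25a1 log2 of -1.59 became -1.13 with an interval that included equality (-2.50 to 0.08), so it was then not called.

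The succinate dehydrogenase genes, which encode a TCA enzyme outside the 49, lay on the lower side in P2x7-KO. Sdhb had 1254 and 868 counts, 1.51-fold lower (1.39 to 1.65). Sdha, Sdhc and Sdhd were 1.12-fold, 1.31-fold and 1.23-fold lower. With the length-GC correction the log2 ratios of Sdhb, Sdha, Sdhc and Sdhd were -0.13, -0.24, -0.50 and -0.01. Glud1, whose enzyme feeds glutamate carbon into the cycle, had 3205 and 4946 counts, 1.47-fold higher (1.41 to 1.54). Hif1a, which encodes a hypoxia-inducible factor subunit, had 609 and 898 counts, 1.41-fold higher (1.27 to 1.56), but its log2 of 0.49 became -0.06 with the correction. Its partner gene Arnt had 437 and 853, 1.87-fold higher (1.66 to 2.10). Among the 14 genes under 20 counts, Pklr, Fbp2, Tktl2 and Me3 were at 0 in both libraries, which allows up to 0.247 CPM in wild type and 0.236 CPM in P2x7-KO (3 counts).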

How the data were processed

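RNA was sequenced from 2 sorted libraries, 1 per genotype label. The authors deposited 1 table of raw, unscaled counts. Per the submitters' processing notes, HISAT2 2.0.4 and the mm10 build were used. The sources used here do not give the counting program, annotation or strand setting. The table has 46095 genes, 0 duplicate names, 0 rows naming no gene and 0 value columns left out. Counts were scaled by TMM (edgeR 4.0.16, R 4.3.3). Ratios carry exact 95% Clopper-Pearson intervals, CPM exact Poisson intervals and pair ratios exact conditional intervals (scipy 1.17.1). Reads are not independent molecules, so intervals and the limit of 3 counts cover counting error only. Transcript length and GC content came from the longest coding transcript in GENCODE M21, and the correction was a loess fit (span 0.5) of log2 ratios over 12666 genes. The loess shift was subtracted after centring on its median. Scripts were tested on simulated data. All members are given, those called, in a pair or at a group's extremes with counts and CPM. Other pathway genes were to be named only where called, and those named beyond that are marked in the text. The members and lists were chosen with earlier results of these data known. Alternatives were total count, DESeq2 1.42.0 and upper quartile scaling, a count minimum of 1 or 100, a 1.5-fold call, 5 added to each count, and both corrections. Some genes of the lists are counted in them but not reported here by name.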

Additional observations from a re-analysis of the deposited data

How the results depend on the processing

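Pgls stayed the only member called lower, and Aldoc and Pdk1 stayed called higher, with total count, DESeq2 and upper quartile scaling and with either count minimum. Pfkfb4 stayed called higher except with upper quartile scaling. A 1.5-fold call gave 5 members higher (Aldoc, Ldhb, Pdk1, Pdk2 and Pfkfb4) and 3 lower (Idh3b, Mdh2 and Pgls). The length-GC correction gave 0 lower, and 4 higher, of which Aldoc and Pfkfb4 were also called from the uncorrected ratios. The median log2 ratio of glycolysis, -0.06, was 0.093 with the length-GC correction, 0.033 with length alone and 0.008 with total count scaling. That of the pentose phosphate pathway, -0.02, was 0.11 with length alone, 0.047 with the length-GC correction, 0.053 with total count scaling and 0.021 with DESeq2. That of the TCA group stayed between -0.165 and -0.047 under every alternative run. With the length-GC correction the pairs Pdk2/Pdk1, Idh3g/Idh3a and Mdh2/Mdh1 turned to 0.213, 0.078 and 0.059, Hk2, Pfkfb3, Dlat and Suclg2 to -0.119, -0.023, -0.078 and -0.081, and Aldoa, Tpi1, Pkm and Ldha to 0.164, 0.051, 0.149 and 0.135. With length alone Hk2, Pfkfb3, Aldoa, Tpi1 and Ldha turned to -0.257, -0.076, 0.031, 0.019 and 0.152, and with total count scaling Ldha turned to 0.005. The members and pairs listed are those whose uncorrected interval excluded equality. Gapdh, Pgk1, Eno1, Pdhb, Pgd and Ogdh, whose intervals included it, also changed side with either correction, and some of them with other scalings. The cause of these turns was not tested. No paired analysis was possible because each group holds 1 library, which also leaves no replicate to omit.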
